A study of Mus musculus with 6 samples.

Results

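Oxidative phosphorylation genes encode the respiratory complexes of the inner mitochondrial membrane. The list held 31 nuclear genes, namely 11 named for complex I, 4 of complex II, 5 of complex III, 5 of complex IV, 5 of complex V and Cycs, the mobile carrier cytochrome c. Among the probe sets that the array annotation maps to 1 gene alone, the brightest over the 6 arrays stood for each gene. This gave 30 genes of 11989 genes tested. Cox7b was not analysed here. All 30 were bright, with a mean intensity over all arrays of at least 951 against a floor of 35.4, so each passed the filter on dim probe sets in both genotypes.

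The cells were 5C.C7 T cells, whose transgenic receptor recognises a peptide of moth cytochrome c (MCC). All donors lacked RAG2 and carried CD45.1, and they were either wild type for CTLA-4 or CTLA-4-/- (CTLA-4 KO), so the knockout cells lacked this inhibitory receptor. B10.A recipients were given these cells and an immunization of MCC peptide plus LPS, and the transferred cells were sorted for RNA at day 4. Each genotype had 3 arrays from 2 µg of total RNA. Pooling of animals, their age, the organ sorted and whether both genotypes shared a recipient are not given in the sources used here. The comparison asks how the transferred cells differ between the genotypes after immunization.

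Complex I takes electrons from NADH and complex II takes them from succinate. Complex III passes them to cytochrome c, and complex IV hands them to oxygen. The proton gradient built by complexes I, III and IV drives ATP synthase, which is complex V. T cells that divide after activation are known to use both glycolysis and respiration, and their mitochondria grow in mass and remodel early in the response.

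Ctla4 was measured first as a check of the labels. Its intensity was 5332, 4787 and 4587 in wild type replicates 1, 2 and 3 and 812, 791 and 784 in CTLA-4 KO replicates 1, 2 and 3. All knockout arrays lay below all wild type arrays, with a log2 difference of −2.60 ± 0.10 (SE, limma adjusted p = 1.45e-06). A two-sided exact permutation test gave p = 0.1, and with 3 arrays a group no smaller p is possible over the 20 arrangements. Every array was scaled before deposit to a trimmed mean of 500.003, so each value is relative to the other transcripts of its array, and a change in total RNA per cell is not seen. In such bulk RNA, fewer cells that express a gene and less RNA of it per cell cannot be told apart. T cell markers were bright in all arrays, with a summed intensity over 6 genes of 42227 to 49419 in wild type and 45221 to 46830 in the knockout. The summed ranges, wild type first, were 262 to 422 and 315 to 513 for 2 CD8 genes, 224 to 379 and 163 to 280.1 for 5 B cell genes, 387 to 447 and 341 to 534 for 8 myeloid genes, and 208 to 297 and 158 to 205 for 5 dendritic cell genes. They were 41.7 to 94.5 and 61.3 to 69.2 for 2 NK cell genes, 6.21 to 13.5 and 7.59 to 31.1 for 2 erythroid genes, and 115 to 239 and 153 to 169 for 3 platelet genes. Without a replicate block no marker passed the limma test in either direction, and at an unadjusted p under 0.05 Cd68 was higher and Cd3g and Zbtb46 were lower. With arrays of the same replicate number as a block, the T cell marker Cd3g, a chain of the CD3 complex, fell (8021 ± 933 in wild type and 6260 ± 155 in the knockout, mean ± SD, n = 3 arrays, log2 difference −0.35 ± 0.10 SE, limma adjusted p = 0.029 with the block and 0.122 without), and its part in the results below was not tested. No marker was listed at 0, and Cd79a, Pax5, Itgam, Cd14, S100a8, S100a9, Flt3, Xcr1, Ncr1, Hba-a1, Alas2, Pf4 and Ppbp lay under the floor. Replicate 2 of both genotypes had high Xist, at 14608 and 12599, against at most 107 in the other arrays. The ratio of 5' to 3' signal of the Actb control, a sign of RNA integrity, was 0.418, 0.41 and 0.584 in wild type replicates 1, 2 and 3 and 0.567, 0.691 and 0.544 in CTLA-4 KO. For Gapdh this ratio was 0.103, 0.0955 and 0.25, and 0.109, 0.205 and 0.178. The part of Xist in the results below was not tested, and that of RNA integrity was looked at with the Actb ratio as a term in the fit.

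Across the chain the differences were small and nearly all in one direction. Of the 30 genes, 29 had a positive log2 difference (CTLA-4 KO minus wild type on log2(intensity + 16)), with a median of 0.22 and a range of −0.06 to 0.66. Over all 11989 genes tested the median was 0.00 and 50.2% were positive. Over the 4663 genes at least as bright as the dimmest member, a cut chosen after the values were seen, the median was 0.04 and 57.6% were positive. Many members were far brighter than that cut, so these genes are not matched to them in brightness. Array medians were 68.0, 69.5 and 75.2 in wild type replicates 1, 2 and 3 and 62.1, 63.7 and 71.5 in CTLA-4 KO. After quantile normalization the member median was 0.18 and 28 members were positive. The part of the scaling in these differences was not tested. By the probe sets used, the genotypes did not overlap for 13 of the 30 genes, or 43.3%, with all knockout arrays higher in each. The share was 12.2% of all genes and 17% of the bright ones. No member had all knockout arrays lower by these probe sets, against 10.6% of all genes. Other kept probe sets of Sdha, Atp5a1 and Atp5c1 did. Others of Uqcrh, Cox5a, Cox5b, Cox6a1, Cycs and Atp5a1 had all knockout arrays higher.

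One member passed the test over all probe sets, at a limma adjusted p under 0.05. Atp5o rose, which is 3.33% of the members against 1.19% of all genes that rose, and no member fell, against 0.5% of all genes. With a replicate block, in which arrays of the same number are compared with each other, 4 members rose (13.3%), namely Atp5o, Cycs, Atp5g1 and Uqcrc1, against 5.49% of all genes. By the probe sets used none fell, against 3.47%. A second probe set of Atp5c1 was called lower with the block (limma adjusted p = 0.0153). Other probe sets of Uqcrh, Cox5a, Cox5b, Cox6a1 and Cycs were called higher with it. At an unadjusted p under 0.05 without the block, 14 of the 30 members were higher, against 9.44% of all genes, and none was lower, against 7.15%. The list was chosen with these results known, and the counts and medians describe it without testing it against other genes.

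**Figure D1:**
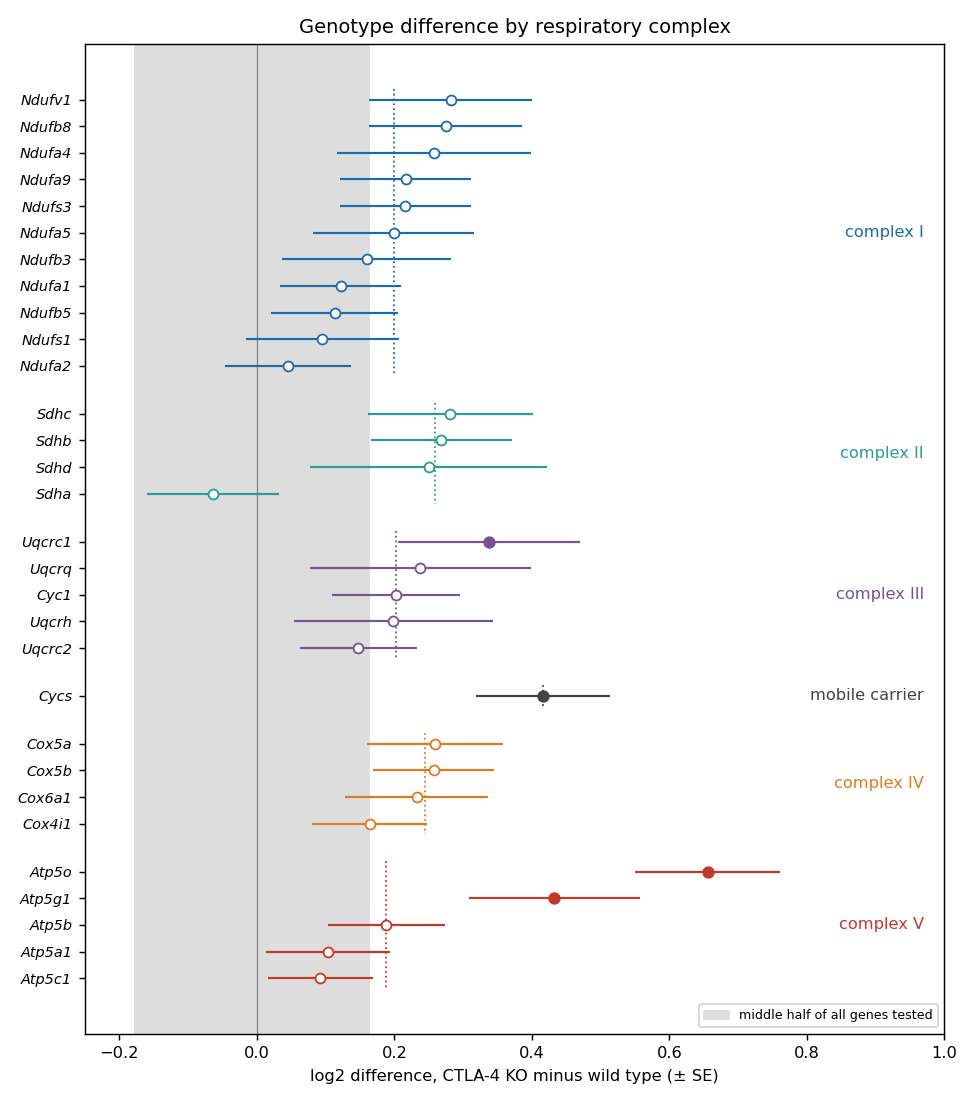
Log2 difference between CTLA-4 KO and wild type (x axis, point ± SE, n = 3 arrays each) for each of the 30 genes (y axis), grouped by complex. Filled points passed the limma test with the replicate block, dotted lines are complex medians, and the grey band spans the middle 50% of all genes tested, −0.18 to 0.16; Atp5o stands farthest to the right at 0.66.

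The promoters of the 4 genes that rose with the block are shown for reference, as the DNA from which these transcripts start. They are the 250 bases before the start site in RefSeq's GRCm38.p6 table, read along the gene's strand, and capitals mark the letters GCATGCGC, the core of the site bound by NRF-1, a transcription factor of many respiratory genes. The array files name no build, and these coordinates are RefSeq's. They are chr16:91931631-91931880 on the minus strand for Atp5o, chr6:50566570-50566819 on the minus strand for Cycs, chr11:96075632-96075881 on the minus strand for Atp5g1 and chr9:108936398-108936647 on the plus strand for Uqcrc1.
Atp5o: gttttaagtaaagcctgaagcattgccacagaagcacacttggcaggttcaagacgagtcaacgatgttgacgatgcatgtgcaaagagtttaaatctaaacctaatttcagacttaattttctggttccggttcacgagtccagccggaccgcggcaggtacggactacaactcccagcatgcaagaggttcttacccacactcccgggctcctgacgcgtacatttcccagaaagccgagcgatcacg
Cycs: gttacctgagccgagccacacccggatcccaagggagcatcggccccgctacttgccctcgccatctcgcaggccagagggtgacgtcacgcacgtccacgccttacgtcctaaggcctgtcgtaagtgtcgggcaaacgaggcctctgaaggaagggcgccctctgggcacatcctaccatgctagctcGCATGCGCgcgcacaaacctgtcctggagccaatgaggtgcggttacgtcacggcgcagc
Atp5g1: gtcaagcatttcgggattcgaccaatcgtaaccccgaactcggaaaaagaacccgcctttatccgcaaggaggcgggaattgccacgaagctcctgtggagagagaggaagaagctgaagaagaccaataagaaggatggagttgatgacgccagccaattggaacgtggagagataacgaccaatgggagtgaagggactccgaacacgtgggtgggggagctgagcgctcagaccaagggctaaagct
Uqcrc1: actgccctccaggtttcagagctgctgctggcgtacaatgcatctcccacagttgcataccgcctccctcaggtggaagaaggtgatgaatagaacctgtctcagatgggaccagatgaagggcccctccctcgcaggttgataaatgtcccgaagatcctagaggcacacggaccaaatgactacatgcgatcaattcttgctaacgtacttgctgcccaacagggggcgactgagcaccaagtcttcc

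In Cycs the core lay upstream and began at position −60 from the start site. In Uqcrc1 it lay in the 50 bases after the start, which are not printed, where its match and that of its reverse complement overlapped. The searched letters were absent from the 300 bases around the start of Atp5o and Atp5g1. The RefSeq table listed promoters for 22 of the 30 genes. On either strand of the 300 bases, GCATGCGC was found in 4 of the 22 (Cox6a1, Cycs, Sdhb and Uqcrc1), or 18.2%, against 3.05% of 27025 genes with a listed promoter. CCGGAAG, a core of sites bound by ETS factors such as GABP, was found in 5 (Cox6a1, Ndufs3, Sdhb, Sdhd and Uqcrh), or 22.7%, against 9.93%. AAGATGGC, a core of YY1 sites, was found in 2 (Ndufa9 and Ndufb8), or 9.09%, against 3.19%. TATAAA, the core of the TATA box, was found in none, against 15.7% of all genes. The median GC content was 60.8% over the 24 member promoters and 52.7% over all 32851 promoters, and letter matches rise or fall with base composition. A match in letters does not show that a factor binds there.

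Complex I is the largest complex of the chain, and its 11 members had positive differences from 0.05 to 0.28, with a median of 0.20. None passed the limma test with or without the block, and 4 of the 11 were higher at an unadjusted p under 0.05, against 9.44% of all genes. Ndufv1, which carries the site where NADH is oxidised, had intensities of 5398, 6383 and 4614 in wild type replicates 1, 2 and 3 and 6666, 6850.3 and 6273 in CTLA-4 KO. Wild type replicate 2 lay above knockout replicate 3, so the groups overlapped (log2 difference 0.28 ± 0.12 SE, limma adjusted p = 0.283, and 0.078 with the block). Ndufb8, an accessory subunit whose protein is lost when complex I is not assembled, had 2886, 3522 and 3008 in wild type and 3459, 3878 and 4047 in the knockout. Here too wild type replicate 2 was above the lowest knockout array (0.27 ± 0.11, adjusted p = 0.265).

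Knockout arrays did not overlap with wild type arrays for 3 of the 11 complex I members, all higher. This is 27.3%, against 12.2% of all genes and 17% of those at least as bright as the dimmest member. Ndufs3, a core subunit of the arm that carries electrons towards ubiquinone, had 2704, 2602 and 2613 in wild type and 2936, 3253 and 3024 in the knockout. Ndufa9, an accessory subunit near the ubiquinone site, went from 3508 ± 187 to 4078 ± 221 (mean ± SD, n = 3 arrays). Ndufa5, an accessory subunit of the peripheral arm, had 1499 ± 167 and 1716 ± 55.5. The log2 differences were 0.22 for Ndufs3, 0.22 for Ndufa9 and 0.20 for Ndufa5, and none of them passed (limma adjusted p between 0.306 and 0.454).

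Other complex I members were closer to equal. Ndufs1, the large subunit with several iron-sulfur clusters, had 2482, 2318 and 2250.0 in wild type and 2798, 2501 and 2259 in the knockout, so that pair 3 was level and pair 1 was not. Ndufa2, a small accessory subunit, had the lowest difference of the complex, with 6993, 7714 and 8009 in wild type and 7736, 7361 and 8339 in the knockout. Its arrays were interleaved (0.05 ± 0.09, 95% interval −0.16 to 0.25). Ndufa1, Ndufb5 and Ndufb3, small accessory subunits as well, had differences of 0.12, 0.11 and 0.16, and each had 1 pair in which the knockout array was lower. Ndufa4 bears a complex I name but was later found in complex IV. It had 1766, 1944 and 2375 in wild type and 2050.1, 2598 and 2627 in the knockout (0.26 ± 0.14, adjusted p = 0.419).

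Complex II, succinate dehydrogenase, is also an enzyme of the citrate cycle, and its members had differences of both signs. Sdhb, the iron-sulfur subunit, had 5894, 6637 and 5288 in wild type and 7373, 7317 and 6708 in the knockout, with no overlap (0.27 ± 0.10, limma adjusted p = 0.242). Sdhc, a membrane anchor, had 966, 1118 and 1041 in wild type and 1391, 1218 and 1200.5 in the knockout, again with no overlap (0.28 ± 0.12, adjusted p = 0.29). Neither passed the test, and both were under 0.05 without adjustment.

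Sdhd, the other anchor, had 722, 764 and 1144 in wild type and 946, 1054 and 1073 in the knockout. Its wild type replicate 3 lay above all knockout arrays, while the other 2 wild type arrays lay below them (0.25 ± 0.17, adjusted p = 0.53). Sdha, the flavoprotein that oxidises succinate, was the one member of all 30 with a negative difference. It had 6019, 6663 and 6773 in wild type and 5757, 6145 and 6725 in the knockout, lower in each of the 3 pairs but with overlapping groups (−0.06 ± 0.10, 95% interval −0.28 to 0.15, adjusted p = 0.794). Its other probe sets that passed the filter had differences of −0.02 and −0.46, neither called.

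Complex III members had differences of 0.15 to 0.34 with a median of 0.20. Uqcrc1, a core protein of the matrix side, had 5033, 6181 and 4399.9 in wild type and 7064, 6831 and 5736 in the knockout. Wild type replicate 2 overlapped the knockout range, but in every pair the knockout array was higher, by 0.49, 0.14 and 0.38 in pairs 1, 2 and 3. It was not called without the block (0.34 ± 0.13, limma adjusted p = 0.252) and was called with it (adjusted p = 0.04). Cyc1, the subunit that hands electrons to cytochrome c, had 6599, 7508 and 6832 in wild type and 7986, 7513 and 8606 in the knockout. The groups just failed to overlap, since pair 2 was level (0.20 ± 0.09, adjusted p = 0.328).

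By the probe sets used, the remaining complex III members overlapped between genotypes. Uqcrc2, the other core protein, had the lowest difference, with 10558, 11189 and 10144 in wild type and 12219.6, 10961 and 12169 in the knockout (0.15 ± 0.09, adjusted p = 0.446). Uqcrh, the hinge protein beside cytochrome c1, had 3445, 3553 and 4825 in wild type and 3849, 4706 and 4935 in the knockout. Uqcrq, a small subunit of the membrane domain, had 1987, 2475 and 3108 in wild type and 2556, 2963 and 3319.9 in the knockout. In both, wild type replicate 3 lay above knockout replicates 1 and 2. A second Uqcrh probe set, with means of 1365 in wild type and 1761 in the knockout, did not overlap. Its difference of 0.36 ± 0.11 was called with the block (limma adjusted p = 0.0396) but not without it (0.156).

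Cytochrome c shuttles electrons from complex III to complex IV and, when released, starts apoptosis. Cycs had intensities of 8838, 10102 and 10083 in wild type replicates 1, 2 and 3 and 11692, 12954 and 14144 in CTLA-4 KO. The groups were well apart, and the pair differences of 0.40, 0.36 and 0.49 were close to each other. The log2 difference was 0.42 ± 0.10, which did not pass without the block (limma adjusted p = 0.0711) and did with it (0.0103). Its other bright probe sets were higher too, by 0.61 ± 0.12 (adjusted p = 0.0402) and 0.43 ± 0.09 (0.0513), and the mean of its kept probe sets was called (0.49, adjusted p = 0.0355).

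Complex IV, cytochrome c oxidase, had 4 measured members, with differences of 0.16 to 0.26 and a median of 0.24. By the probe sets used, none passed the limma test with or without the block. At an unadjusted p under 0.05, 3 of the 4 were higher, against 9.44% of all genes. Cox5b, a regulatory subunit on the matrix side, had 10681, 12084 and 10905 in wild type and 13128, 12726 and 14388 in the knockout. Cox5a, another matrix-side subunit, had 11289, 13326 and 13037 in wild type and 13511, 15416 and 16141 in the knockout. All knockout arrays were higher for both, yet neither passed (0.26 ± 0.09, limma adjusted p = 0.194 for Cox5b, and 0.26 ± 0.10, 0.241 for Cox5a). Cox4i1, the common isoform of subunit 4, was lowest in difference, with 13031, 14370.1 and 13654 in wild type and 14774, 14748 and 16507 in the knockout. Cox6a1 overlapped, since its wild type replicate 2, at 14164, lay above knockout replicate 2, at 13262 (0.23 ± 0.10). A second probe set of Cox6a1 had a larger difference of 0.53 ± 0.11 (adjusted p = 0.0535, and 0.00902 with the block). Another probe set of Cox5a (0.30 ± 0.11) and another of Cox5b (0.31 ± 0.11) were called with the block only (limma adjusted p = 0.0413 and 0.0415). The remaining bright probe sets of these genes were called in neither fit.

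Complex V members spread most. Atp5o encodes OSCP, the stalk protein that joins the catalytic head of ATP synthase to its membrane part. Its intensities were 3996, 3416 and 3267 in wild type and 5230.5, 5892 and 5688 in the knockout, means of 3559.9 ± 385 and 5603 ± 339 (SD), or 1.57 times the wild type level. No array overlapped, and the pair differences were 0.39, 0.78 and 0.80. The log2 difference was 0.66 ± 0.11 (limma adjusted p = 0.0183, and 0.00201 with the block). A second probe set of the gene, of a kind that can cross-hybridise (_x_at), had 0.20 ± 0.15 (adjusted p = 0.57). The call was lost when single arrays were left out. Without wild type replicates 2 and 3 or CTLA-4 KO replicates 2 and 3 the adjusted p was 0.0567, 0.0678, 0.111 and 0.0611, with the Actb ratio as a term 0.191 at a difference of 0.70, and with the mean of its probe sets 0.117 at 0.43.

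Atp5g1 is one of the genes for subunit c, the ring that turns as protons pass. It had 917, 968 and 816 in wild type and 1328, 1218 and 1117 in the knockout, with no overlap and pair differences of 0.53, 0.33 and 0.45. It was called only with the block (0.43 ± 0.12, limma adjusted p = 0.126 without and 0.0207 with it). Atp5b, the catalytic beta subunit, had 12515, 11397 and 11649 in wild type and 14556, 12944 and 13052 in the knockout. Its groups did not overlap, but the difference was small (0.19 ± 0.09, adjusted p = 0.32).

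Subunits alpha and gamma of the same catalytic head differed less. Atp5c1, the rotating gamma subunit, had 16804, 18224 and 17394 in wild type and 18566, 17932 and 19394 in the knockout (0.09 ± 0.08, 95% interval −0.08 to 0.26). A second Atp5c1 probe set had −0.49 ± 0.12 (limma adjusted p = 0.0887, and 0.0153 with the block), so the direction for this gene depends on the probe set. Atp5a1, subunit alpha, had 0.10 ± 0.09, and its other kept probe sets had 0.26 ± 0.09 and −0.35 ± 0.18.

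**Figure D2:**
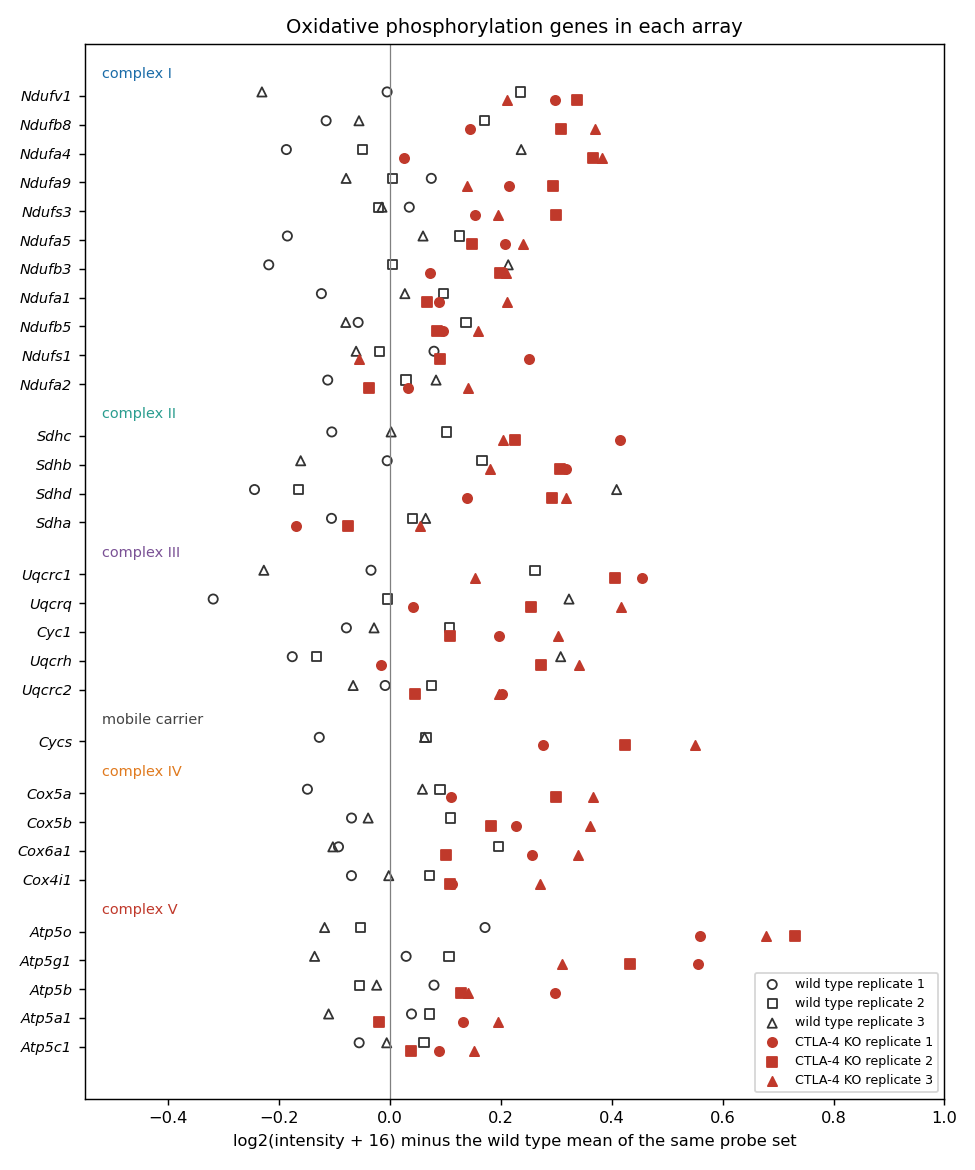
Values of every array for the 30 genes (y axis, grouped by complex), as log2(intensity + 16) minus the wild type mean of the same probe set (x axis). Open symbols are wild type and filled symbols CTLA-4 KO, with one shape per replicate number; Atp5o, Cycs and Atp5g1 show the widest gap between the genotypes.

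Set side by side, the complexes had median log2 differences of 0.20 (I), 0.26 (II), 0.20 (III), 0.24 (IV) and 0.19 (V). With Ndufa4 counted in complex IV, an assignment added after the data were seen, the medians of complexes I and IV were 0.18 and 0.26. The order of the complexes was not stable. With the Actb ratio as a term complex II went from the highest median to the lowest, at 0.13, with 0.18, 0.25, 0.27 and 0.25 for complexes I, III, IV and V, and after quantile normalization complexes IV and V were at 0.16 and 0.12. The difference between complexes was not tested. Within complexes the spread was wider, from 0.09 to 0.66 in complex V and from −0.06 to 0.28 in complex II.

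By array, the mean deviation of the 30 genes from each gene's mean over the 6 arrays was −0.18, −0.05 and −0.10 in wild type replicates 1, 2 and 3 and 0.08, 0.10 and 0.15 in CTLA-4 KO. Wild type replicate 1 was the lowest array for 16 genes and CTLA-4 KO replicate 3 the highest for 16. The genotype difference was smaller in pair 2. Its median over the 30 genes was 0.13, against 0.26 in pair 1 and 0.23 in pair 3, and 22 genes were higher in the knockout array of pair 2, against 29 and 27. Complex IV had medians of 0.28, 0.06 and 0.35 in pairs 1, 2 and 3. Complex II did not follow this order, with 0.35, 0.13 and 0.10, so that its pair 3 was the smallest, and Cycs had 0.36 in pair 2. In all, 20 of the 30 genes were higher in the knockout array of every pair and Sdha was lower in every pair. Counts by pair were not taken over all genes, so no background share stands beside them. The arrays of pair 2 were also those with high Xist and with the widest gap in the Actb ratio, 0.41 against 0.691. Both traits fall on the same pair and cannot be told apart here, and their part in its smaller difference was not tested. Without pair 2 the median was 0.23.

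**Figure D3:**
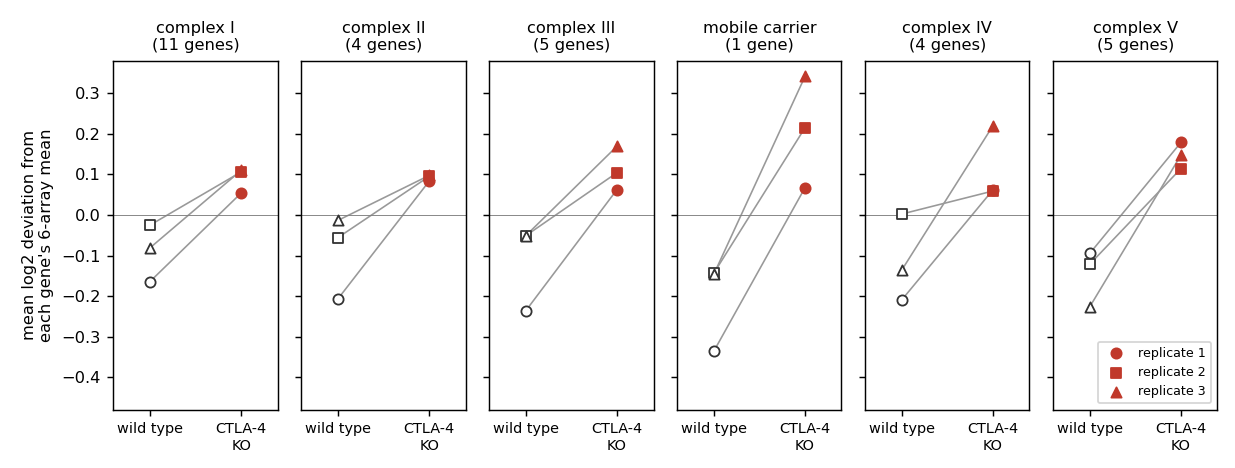
Mean log2 deviation of the genes of each complex from each gene's mean over the 6 arrays (y axis) in wild type (open) and CTLA-4 KO (filled) arrays, with lines joining arrays that share a replicate number. In each of the panels the 3 knockout arrays lie above the 3 wild type arrays; in complex IV the line of pair 2 is the flattest, from 0.00 to 0.06.

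Among wild type arrays the members fell into different orders. Replicate 1 was lowest for 17 genes and replicate 3 for 11, among them Uqcrc1, Ndufv1, Sdhb, Atp5o and Atp5g1. For 7 genes, Ndufa2, Ndufa4, Ndufb3, Sdha, Sdhd, Uqcrh and Uqcrq, replicate 3 was instead the highest of the wild type and lay above at least 1 knockout array. That array also had the highest 5' to 3' ratios of the wild type, 0.584 for Actb and 0.25 for Gapdh. With the Actb ratio as a term, Sdhd and Uqcrh were at −0.049 and −0.039. Sdha, negative without that term too, was at −0.089. Ndufa2, Ndufa4, Ndufb3 and Uqcrq stayed positive, at 0.042, 0.052, 0.0008 and 0.027. No member was called in that fit, and the median over the 30 genes was 0.22, while that of complex II was 0.13. Whether RNA integrity underlies the order of the wild type arrays for these 7 genes was not tested.

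Several probe sets read 17 of the 30 genes, with 27 other probe sets above the filter. Of these, 18 had a mean intensity of 500 or more, and 16 of the 18 had a positive difference, the exceptions being Sdha and Atp5c1. Of the 9 dimmer ones, 4 were positive and 5 negative, the latter in Ndufb8, Sdha, Uqcrq and Atp5a1. The dim Ndufb8 probe set had −0.19 ± 0.18 against 0.27 for the one used. Those of Uqcrq had 0.05 ± 0.24, −0.52 ± 0.35 and −0.33 ± 0.21 against 0.24, and none of them was called in either fit. All 5 bright probe sets of Cox5a and Cox5b beside the ones used were between 0.27 and 0.32. Processed pseudogenes of respiratory genes are common in mammals, and 6 of the probe sets used (for Ndufa2, Uqcrh, Uqcrq, Cox5b, Atp5a1 and Atp5c1) are of kinds that can read more than one transcript, so these values are less certain.

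**Figure D4:**
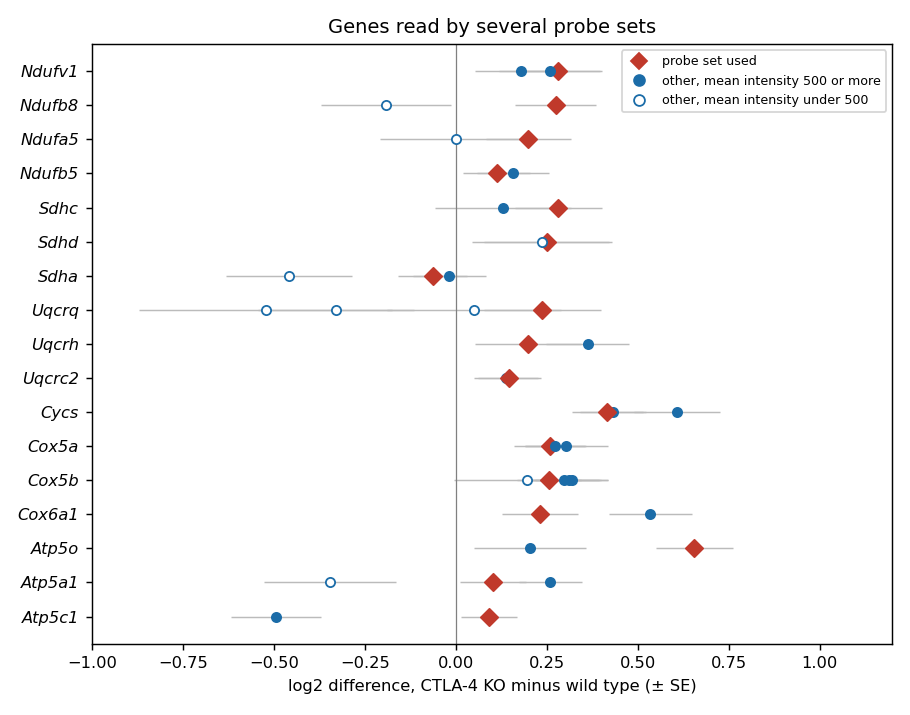
Log2 difference (x axis, ± SE) of every kept probe set of the 17 genes read by more than one (y axis). Diamonds are the probe sets used, filled circles others with a mean intensity of 500 or more, open circles dimmer ones; the bright probe sets of Cycs, Cox5a and Cox5b lie together on the right, and those of Atp5o and Atp5c1 lie apart.

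The other nuclear subunits of the chain, 45 measured genes that are not members, belong to the same complexes. Their median difference was 0.20, and 41 were positive. The knockout arrays were all higher for 14 of them, or 31.1%, against 12.2% of all genes. None passed the limma test without the block. In that fit 13 of the 45 were higher at an unadjusted p under 0.05, against 9.44% of all genes, and none was lower, against 7.15%. With the block 4 rose (8.89% against 5.49%): Ndufb7, Uqcr11, Cox7a2 and Usmg5. Ndufb7, a complex I subunit on the intermembrane side, had 5279 ± 830.2 in wild type and 6954 ± 401 in the knockout (mean ± SD, n = 3 arrays). Uqcr11, a small complex III subunit, had 1001 ± 116 and 1331 ± 129. Cox7a2, the liver-type isoform of subunit 7a in complex IV, had 9910.3 ± 669 and 12226 ± 225. Usmg5, a small membrane protein of ATP synthase, had 1503 ± 254 and 2061 ± 209. Muscle-type isoforms were dim, with Cox6a2 at 119 and 93.9 and Cox7a1 under the filter. Of the 8 other complex IV genes measured 4 were negative, Cox6a2, Cox7c, Cox4i2 and Cox7a2l, and none of these was called.

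Factors that build the complexes were mixed. Of 28 assembly factors measured 20 were positive, with a median of 0.11. None passed the limma test without the block. In that fit 4 of the 28 were higher at an unadjusted p under 0.05, against 9.44% of all genes, and none was lower, against 7.15%. With the block 2 rose (7.14% against 5.49% of all genes, a share near the background). Cox17, the copper chaperone of complex IV, had 5376, 5642 and 7605 in wild type and 7800.0, 8738 and 10862 in the knockout, with every knockout array above every wild type array (0.56 ± 0.15, limma adjusted p = 0.108, and 0.00186 with the block). Ndufaf4, an assembly factor of complex I, had 897, 1103 and 996 in wild type and 1457, 1329.6 and 1649 in the knockout (0.56 ± 0.13, 0.0697 and 0.0101). Uqcc1, a complex III assembly factor, had 242 ± 10.3 and 333 ± 15.8 (mean ± SD, n = 3 arrays) and was called in neither fit. Of 7 genes of coenzyme Q synthesis none was called in either fit, and 1 was higher at an unadjusted p under 0.05, against 9.44% of all genes. Coq7, a hydroxylase of that pathway, had the smallest p with 0.38 ± 0.15 (limma adjusted p = 0.239).

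The citrate cycle supplies NADH and succinate, and pyruvate dehydrogenase feeds it. Of 15 measured genes of these enzymes, Pdha1 and Pdhb of pyruvate dehydrogenase included, 14 were positive, with a median of 0.13. One rose with the block (6.67% against 5.49% of all genes) and none without it. In the fit without it 3 of the 15 were higher at an unadjusted p under 0.05, against 9.44% of all genes. All knockout arrays were higher for 6 of the 15, or 40%, against 12.2% of all genes and 43.3% of the members. Idh3a, a subunit of NAD-dependent isocitrate dehydrogenase, rose with the block, from 2804 ± 250.1 to 3529 ± 272 (mean ± SD, n = 3 arrays, 0.33 ± 0.11 SE, limma adjusted p = 0.169 without and 0.0368 with it). Ogdh and Dlst, both of the oxoglutarate dehydrogenase complex, had 0.32 and 0.25 and were not called. Of 7 carriers, channels and regulators of coupling 6 were positive, and none was called by limma in either fit. At an unadjusted p under 0.05, 2 of the 7 were higher, against 9.44% of all genes. The ADP/ATP carrier gene Slc25a4 had 7832 ± 188 and 9412 ± 343, with no overlap (0.26 ± 0.08, adjusted p = 0.145).

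Genes of mitochondrial biogenesis and genome maintenance, a list of transcriptional regulators together with proteins that copy and transcribe mitochondrial DNA, lay on both sides of 0. Of 14 measured genes 8 were positive and 6 negative, with a median of 0.02. None was called by limma in either fit. At an unadjusted p under 0.05, 2 of the 14 were higher, against 9.44% of all genes, and 1 was lower, against 7.15%. Polrmt, the mitochondrial RNA polymerase, had 0.34 ± 0.13 and Pprc1, a coactivator related to PGC-1, had 0.28 ± 0.12, while Polg2, the accessory subunit of the mitochondrial DNA polymerase, had −0.24 ± 0.11 (limma adjusted p = 0.261, 0.277 and 0.306). Nrf1 had −0.03, Gabpa 0.01 and Tfam, the packaging factor of mitochondrial DNA, 0.03, and Ppargc1a, which encodes PGC-1 alpha, was under the filter. The mitochondrial ribosome, which translates the subunits encoded in mitochondrial DNA, had 69 of 76 measured genes positive, with a median of 0.19. At an unadjusted p under 0.05 without the block, 21 of the 76 were higher, against 9.44% of all genes, and none was lower, against 7.15%. All knockout arrays were higher for 30 of the 76, or 39.5%, against 12.2% of all genes and 43.3% of the members. One rose, or 1.32% against 1.19% of all genes, a share near the background. It was Mrps28, from 484 ± 34.9 to 789 ± 68.2 (0.69 ± 0.13, limma adjusted p = 0.0385). With the block 11 rose, or 14.5% against 5.49% of all genes. Differences between these lists and the members were not tested.

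**Figure D5:**
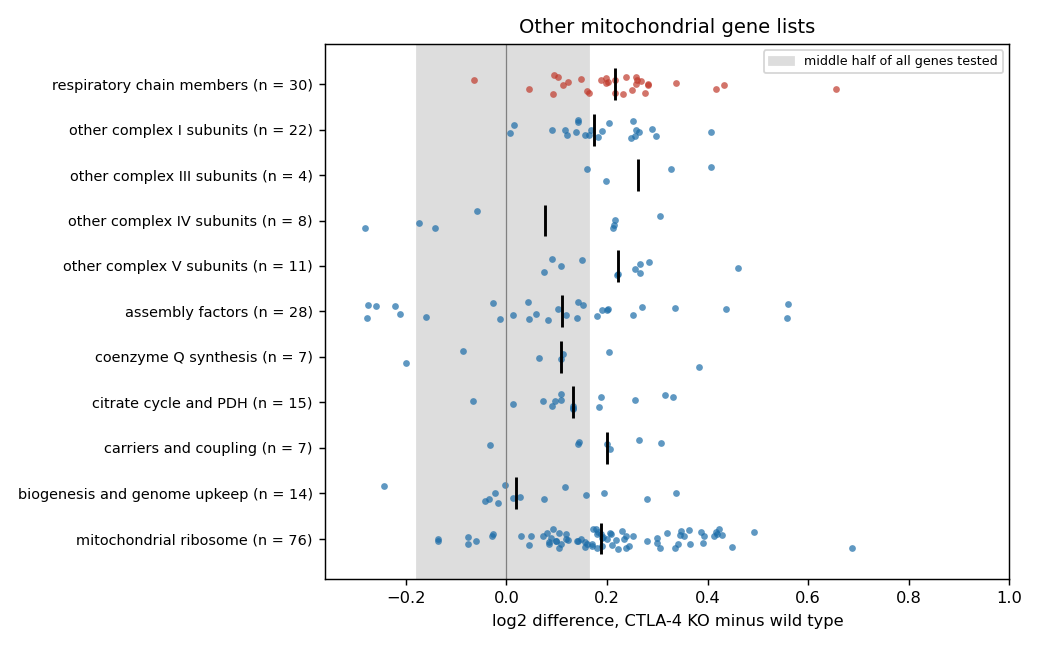
Log2 difference between CTLA-4 KO and wild type (x axis) of each measured gene in the members and 10 other mitochondrial lists (y axis, jittered), with black bars at list medians and a grey band over the middle 50% of all genes tested. The member median of 0.22 and that of the mitochondrial ribosome, 0.19, lie right of the band. So do those of the other subunits of complexes I (0.17), III (0.26) and V (0.22) and of carriers and coupling (0.20). The biogenesis and genome maintenance list centres at 0.02.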

How the data were processed

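The authors deposited linear intensity values of 45101 probe sets on 6 arrays. Partek and MAS5 are named, without versions, by the submitters' processing notes, and each deposited intensity column has a trimmed mean of 500.003 (2% cut at each end). Groups and replicate numbers come from the titles. Arrays of the same number were treated as pairs in the block, although the titles state no pairing. The deviations of same-numbered arrays from their groups correlated across probe sets, at 0.371, 0.24 and 0.254 for 1, 2 and 3. Those of differently numbered arrays were not set beside them, so calls made only with the block rest on an assumed pairing. The titles call the arrays biological replicates but name no separate animals. The p-values set the genotype difference against the scatter of these arrays only. How much of that scatter is technical is not known, and the number of arrays limits the precision.

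Values became log2(intensity + 16). The 64 control probe sets and those with a mean log2 value under the 40th percentile, 35.4 in intensity, were left out, which kept 27022. Under R 4.3.3, limma 3.58.1 with a trend of variance on intensity (residual degrees of freedom 4, and 2 with the block) was fitted to all probe sets and tested on simulated data. P-values count both directions and were Benjamini-Hochberg adjusted over all probe sets kept, with a threshold of 0.05. Symbols came from the platform annotation, which names 1 gene for 34958 probe sets, several for 932 and none for 9211; older list names were matched through RefSeq. Values in every array are given for members called in either fit, the 2 with the smallest p and the lowest difference in each complex, and Cycs, and up to 3 genes by p per other list; other values were added after they were seen. Members and lists were chosen with earlier results of these data known. Alternatives were the filter, pseudocount, normalization, trend, replicate block, RNA quality term, probe set choice and leaving out arrays.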

Additional observations from a re-analysis of the deposited data

How the results depend on the processing

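The direction of the member median held in all alternatives run, at 0.16 to 0.27, the number of arrays limits how small a difference can be called, and no member was called lower in any. The count of 1 member called became 0 with no dimness filter, without the intensity trend, without replicate pair 2 and with the Actb term, 4 with the replicate block, and 0 to 1 when single arrays were left out. The 339 probe sets called became 111, 20, 46 and 21 in those same 4 fits, 2341 with the replicate block, and 62 to 217 when single arrays were left out. The complex I median was 0.26 under median centring, 0.13 with probe sets averaged per gene and 0.14 to 0.21 without single arrays. The complex III median was 0.14 to 0.28 and that of Cycs 0.35 to 0.49 without single arrays, and Cycs had 0.49 with the mean of its probe sets. The complex II median was 0.13 with the Actb term and that of complex IV 0.16 after quantile normalization. The complex V median was 0.12 after quantile normalization and 0.26 with the brightest probe set not ending in _x_at or _s_at. Ndufa2 turned to −0.023 after quantile normalization and lay between −0.011 and 0.087 without single arrays. With the Actb term Sdhd was −0.049 and Uqcrh −0.039. With the mean of probe sets Uqcrq was −0.14 and Atp5c1 −0.20, and with the brightest probe set not ending in _x_at or _s_at they were −0.33 and −0.49. Median centring raised the median of all genes to 0.06. Fewer arrays enter the fits that leave some out; otherwise the cause of these changes was not tested.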
